A study of Mus musculus with 15 samples.

Results

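The comparison described here sets hemibrain RNA of mice on a balanced diet (BLD) against that of mice on a standard diet (STD). Its members are the 10 arrays whose diet label is BLD or STD, 5 of each, out of 15 in the study, and it covers all 22557 genes that could be tested. BLD held n-3 and n-6 polyunsaturated fatty acids (PUFA) at a ratio of 1 to 1. The third diet of the study, ERD, was enriched in n-3 PUFA at a ratio of 7 to 1, and the STD ratio was 1 to 6. The 3 diets were matched in caloric content. Every animal was a male C57BL/6j mouse without any genetic modification named in the labels, and all began their diet at 3 weeks of age and stayed on it for 24 weeks. The left hemibrain was taken, so each value averages over cortex, deeper regions and every cell type in them. On each array the hemibrain RNA of 1 animal was labelled with Cy5 and a commercial mouse reference RNA, pooled from 11 cell lines, with Cy3. A value is hemibrain over reference as a log2 ratio, and a difference between diets, called the log2 change below, is the BLD mean minus the STD mean of these ratios.

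PUFA of the n-3 and n-6 families are essential fatty acids that share the same desaturases and elongases. Their long-chain products, docosahexaenoic acid (n-3) and arachidonic acid (n-6), are built into neuronal membranes. Arachidonic acid is the source of eicosanoids and endocannabinoids, and both families bind nuclear receptors such as the PPARs and RXRs, which act on genes of fatty acid oxidation. The comparison asks which hemibrain transcripts differ when the n-6 excess of a standard chow is removed without reaching the n-3 excess of ERD.

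The arrays carried brain RNA as labelled. Neuron markers had a median log2 ratio to the reference of 3.73 in BLD and 3.75 in STD, astrocyte markers 3.71 in BLD and 3.91 in STD, and oligodendrocyte markers 3.07 in BLD and 2.71 in STD. Spots well above background in Cy5 numbered 27945 ± 3535 on BLD arrays and 26949 ± 1612 on STD arrays (SD, n = 5 each, exact permutation test, two-sided p = 0.611). BLD arrays resembled each other less than STD arrays did, with a median pairwise correlation across genes of 0.931 in BLD and 0.972 in STD, and the SD was larger in BLD than in STD for 68.0% of genes. The 15 arrays lay on 8 slides that were scanned on 2 days. BLD 2, BLD 3 and BLD 4 were scanned on the later day and 0 STD arrays were, and slide 7 alone held an array of both diets (BLD 5 and STD 4). Slide 1 held BLD 2, BLD 3 and ERD 4. Of all 15 arrays ERD 1 had the fewest spots well above background in Cy5 (17720). It also had the lowest median correlation with the other arrays (0.880), and it is part of the limma model used below.

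Raly, an RNA-binding protein of the heterogeneous nuclear ribonucleoprotein (hnRNP) family that is related to hnRNP C, rose in BLD. Its log2 ratio was 0.78, 0.68, 0.62, 0.92 and 0.79 on BLD arrays 1 to 5, against -0.46, -1.79, -1.75, -1.495 and -1.84 on STD arrays 1 to 5. The groups did not overlap, the BLD values lay within a narrow band, and STD 1 stood above the other STD arrays. The means were 0.76 ± 0.12 in BLD and -1.47 ± 0.58 in STD (SD, n = 5 each), a log2 change of 2.23 ± 0.22 (SE) or 4.68-fold (adjusted p = 0.000729 in limma).

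The other transcript that passed was measured by probe A_55_P2037525, which has no gene symbol in the RefSeq table used. Its log2 ratio was 0.55, 0.54, 0.64, 0.60 and 0.76 in BLD, against -0.37, -0.02, -0.54, -0.11 and -0.45 in STD. The BLD arrays were again tight and all above the STD arrays. The log2 change was 0.92 ± 0.13 (SE, adjusted p = 0.0294 in limma).

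These were 2 of 22557 genes (0.00887%) past a Benjamini-Hochberg adjusted p of 0.05 in a limma model over all 15 arrays, both higher in BLD, and 0 genes (0%) passed in the other direction. At an unadjusted p under 0.05 stood 2427 genes (10.8%), 1716 of them higher (7.61%) and 711 lower (3.15%) in BLD. The groups did not overlap in 650 genes (2.88%), of which 478 (2.12%) were higher and 172 (0.763%) lower in BLD. Of the genes at an unadjusted p under 0.05, 70.7% were higher in BLD, but the split depended on the processing of the intensities. That share was 95.7% with each array centred on its median in place of loess, 51.5% from the scanner's processed signals, 47.3% with a background offset of 1 and 45.1% from Cy5 alone. Each array stands for a different animal, and p-values measure the spread between these animals and arrays.

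The Raly difference held on slide 7, where BLD 5 exceeded STD 4 by 2.29. It was called whichever of the 15 arrays was left out, with a highest adjusted p of 0.00525. With slide as a fixed block the log2 change was 2.19 (adjusted p = 0.339), and on the earlier scan day alone, with BLD 1 and BLD 5, it was 2.25 (adjusted p = 0.309), so the size remained and the call did not. Raly was represented by 1 probe. A_55_P2037525 lost its call without any of BLD 2, BLD 4, BLD 5, STD 3, STD 5, ERD 2 or ERD 4, with log2 changes from 0.86 to 0.93 and a highest adjusted p of 0.124. It also lost it from the processed signals (0.85, adjusted p = 0.0909) and without slide 1 (0.93, adjusted p = 0.280). Its adjusted p was 0.921 with slide as a fixed block, 0.323 with scan day as a fixed block, 0.936 on the earlier scan day alone, 0.273 with median centring and 0.159 in Cy5 alone, with log2 changes between 0.81 and 1.16.

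**Figure D1:**
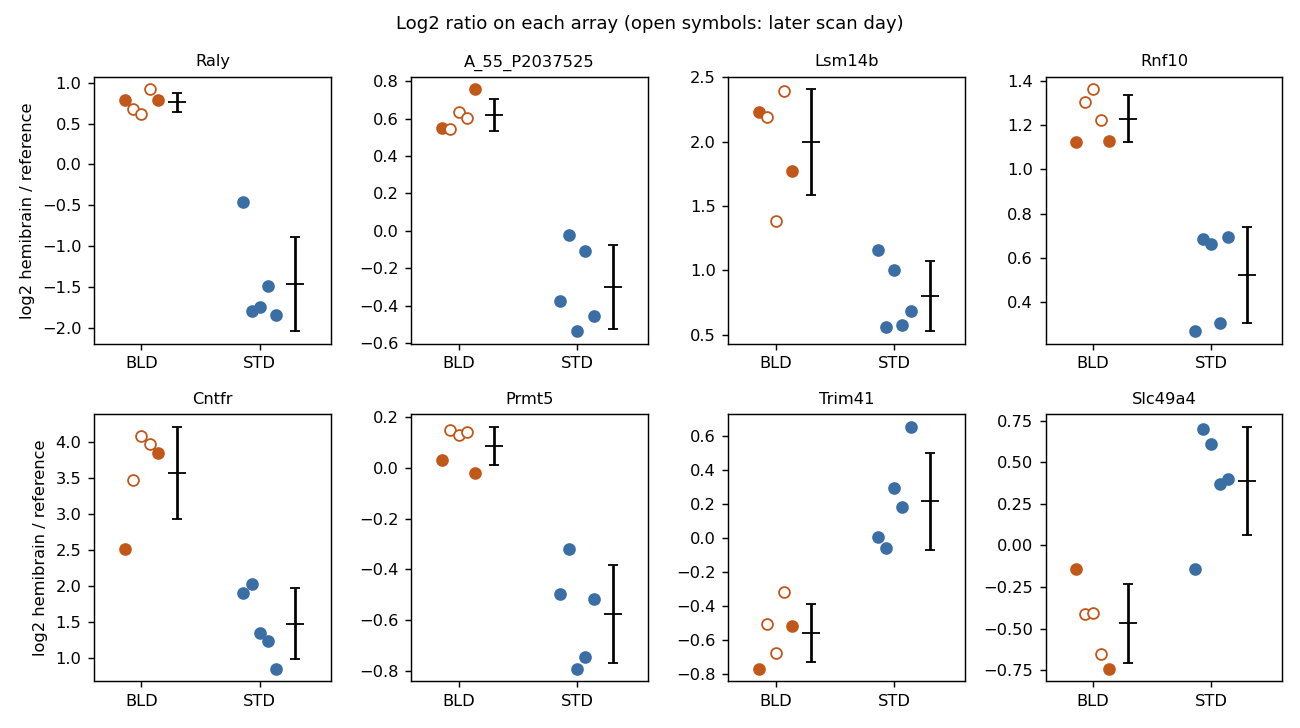
Log2 ratio of hemibrain to reference on each array (vertical axis) for 8 transcripts of low p, with BLD left of STD, 5 arrays each. Bars give the mean ± SD, and open symbols mark arrays of the later scan day, on which BLD 2, BLD 3 and BLD 4 lie. Raly and A_55_P2037525 are the 2 transcripts that passed the test, and of the transcripts shown Slc49a4 alone has overlapping groups.

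**Figure D2:**
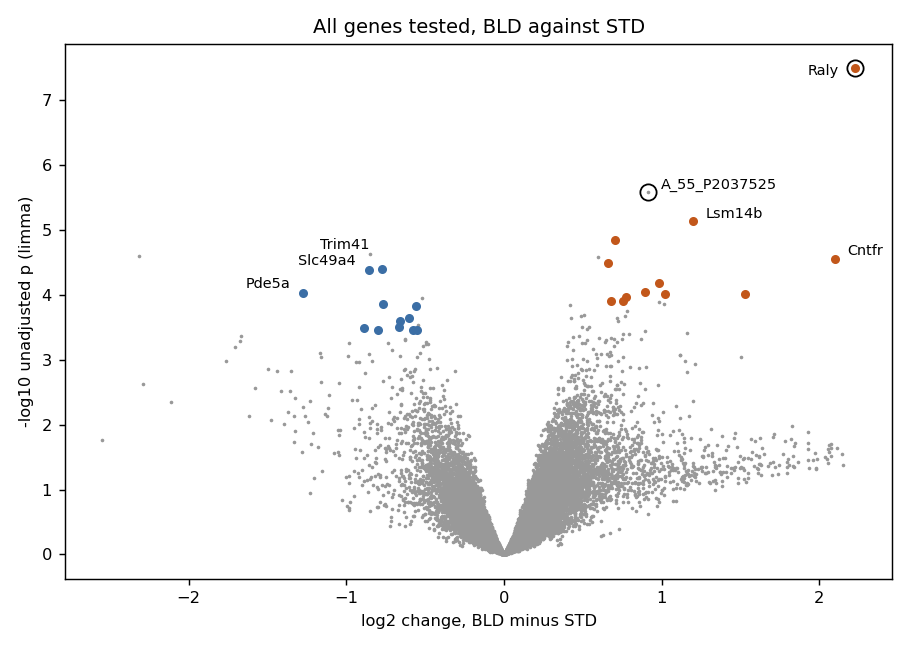
Log2 change of BLD against STD (horizontal axis) and -log10 of the unadjusted limma p (vertical axis) for 22557 genes. Rings mark the 2 called transcripts, orange points the 12 genes of lowest p that were higher in BLD and blue points the 12 that were lower. A band of genes with log2 changes above 1 and modest p extends to the right.

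The plot of all genes shows Raly apart from the rest. The other 23 genes with a symbol that the naming rule took, 11 higher and 12 lower in BLD, did not pass the test, and their values are given as measured.

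Lsm14b, a member of the LSM14 family of RNA-associated proteins, was at 2.23, 2.19, 1.38, 2.40 and 1.77 in BLD, against 1.16, 0.56, 1.01, 0.58 and 0.69 in STD. The groups did not overlap, with BLD 3 lowest among the BLD arrays (log2 change 1.20 ± 0.18 SE, adjusted p = 0.0544 in limma). A further probe of Lsm14b had a log2 change of 0.04. Celf3, a splicing regulator enriched in brain, averaged 5.05 ± 0.47 in BLD and 3.52 ± 0.45 in STD (SD, n = 5 each), a log2 change of 1.53 that was 0.72 from the processed signals. Prmt5, the arginine methyltransferase that modifies Sm proteins of the spliceosome and histones, lay between -0.02 and 0.15 on BLD arrays and between -0.79 and -0.32 on STD arrays (log2 change 0.66).

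Cntfr, the ligand-binding subunit of the ciliary neurotrophic factor receptor, was at 2.51, 3.47, 4.07, 3.96 and 3.85 in BLD, against 1.91, 2.03, 1.35, 1.23 and 0.85 in STD. BLD 1 was lowest of its group and still above every STD array. Its log2 change of 2.10 ± 0.36 (SE, adjusted p = 0.0779 in limma) was 0.98 from the processed signals. Il6st, the gp130 subunit through which that receptor signals, had a log2 change of 0.46 and groups that did not overlap (adjusted p = 0.329).

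Among ubiquitin-related and chromatin genes, Rnf10, a RING-type ubiquitin ligase, was at 1.12, 1.31, 1.36, 1.22 and 1.13 in BLD, against 0.27, 0.69, 0.66, 0.30 and 0.70 in STD. BLD values were uniform and all above STD (log2 change 0.71 ± 0.11 SE, adjusted p = 0.0779 in limma). Ube4a, which extends ubiquitin chains, had a log2 change of 0.76, and Kdm2a, a histone demethylase at CpG islands, one of 0.68. Anp32a, an acidic nuclear phosphoprotein that binds histones, had one of 0.98. The further probes of Kdm2a and Anp32a had log2 changes of 0.03 each, so they did not follow the probes tested.

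The 3 remaining genes on the higher side were Ly6a (0.89), a surface protein found on brain endothelium, Rhog (0.77), a small GTPase of the actin cytoskeleton, and Zic2 (1.02), a zinc finger transcription factor of cerebellar granule cells. Zic2 was well above background on 5 of 5 BLD arrays and on 3 of 5 STD arrays. It lay between 0.45 and 1.71 in BLD and between -0.01 and 0.28 in STD. With the 3 arrays of slide 1 left out, a choice made after seeing the data, its log2 change was 1.41 (adjusted p = 0.000429), and on the earlier scan day alone it was 1.36 (adjusted p = 0.00747). It was 1.56 from the processed signals (adjusted p = 0.254), 1.94 with a background offset of 1 (0.176), 0.62 with median centring (0.273) and 0.48 in Cy5 alone (0.330), and did not pass in any of these. Adjusted p over the 12 genes taken on this side ran from 0.000729 to 0.132, and the groups did not overlap in any of the 12. Among all genes 2.12% were higher without overlap. The 12 were taken by low p in this same comparison, which favours groups without overlap.

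On the lower side Trim41, a RING-type ubiquitin ligase, was at -0.77, -0.51, -0.68, -0.32 and -0.52 in BLD, against 0.00, -0.06, 0.29, 0.18 and 0.66 in STD. All BLD arrays lay below all STD arrays, and STD 5 was highest (log2 change -0.77 ± 0.14 SE, adjusted p = 0.0846 in limma). Pde5a, the cGMP-specific phosphodiesterase, averaged -0.99 ± 0.27 in BLD and 0.28 ± 0.60 in STD (SD, n = 5 each), and STD 1 fell among the BLD arrays. Its log2 change was -1.28, and -2.80 from the processed signals, with 4 of 5 BLD arrays well above background. Slc49a4, a transporter of the lysosomal membrane, had a log2 change of -0.86 (-1.77 from the processed signals) and groups that met at STD 1.

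Mapk10, the brain-enriched kinase JNK3, was at 5.91, 5.91, 5.39, 5.84 and 5.76 in BLD, against 6.62, 6.27, 6.73, 6.34 and 6.69 in STD. The groups did not overlap, but most of the difference lay in the reference channel. The log2 change of -0.77 in the ratio stood beside -0.15 in Cy5 alone and 0.49 in Cy3 alone, and a further probe had a log2 change of 0.42. Bcas1, a protein of oligodendrocytes, likewise had -0.55 in the ratio, -0.09 in Cy5 and 0.44 in Cy3. Faim2, a neuronal inhibitor of Fas signalling, had -0.89 in the ratio, -0.46 in Cy5 and 0.35 in Cy3.

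Mag, the myelin-associated glycoprotein, lay between 4.32 and 4.57 in BLD and between 4.80 and 5.53 in STD, a log2 change of -0.66 that was -0.45 in Cy5 alone. The remaining genes on the lower side were Atp9a (-0.56), a phospholipid flippase, Gdap1l1 (-0.60), a paralogue of the neuropathy gene Gdap1, Abcb9 (-0.66), a lysosomal peptide transporter, Cnot6l (-0.57), a deadenylase of messenger RNA, and Npdc1 (-0.80), a neural growth regulator. Further probes had log2 changes of 0.17 for Atp9a, 0.00 for Gdap1l1 and -0.20 for Cnot6l. Adjusted p over the 12 genes taken on the lower side ran from 0.0846 to 0.184, and in 9 of the 12 the groups did not overlap. Among all genes 0.763% were lower without overlap, and these 12 too were taken by low p.

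**Figure D3:**
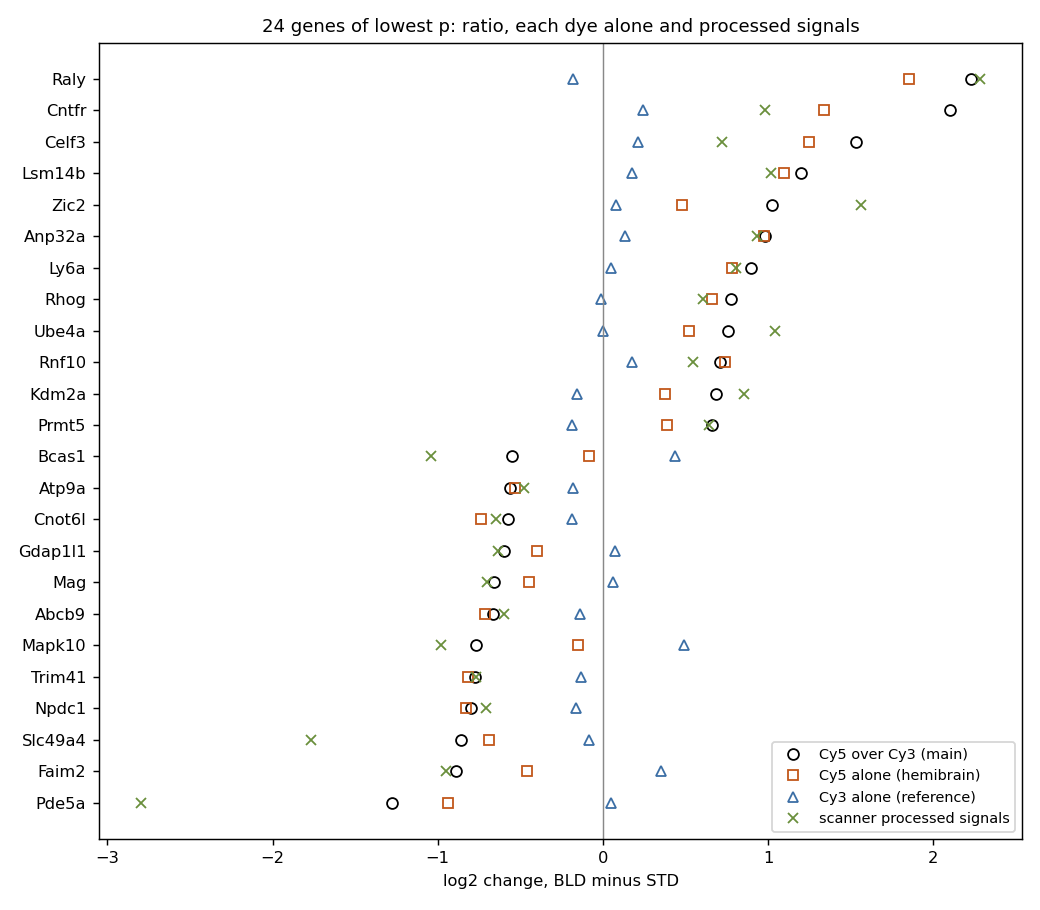
Log2 change of BLD against STD (horizontal axis) for the 12 higher and 12 lower genes of lowest p, as the ratio of both dyes (circles), in Cy5 alone (squares), in Cy3 alone (triangles) and from the scanner's processed signals (crosses). Cy5 lies on the side of the ratio for all 24 genes, while Cy3, the reference, lies between -0.19 and 0.49.

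Cy3 held the same reference RNA on every array and no hemibrain RNA. The plot of both dyes places Mapk10, Bcas1 and Faim2 as the genes with the highest Cy3 values. For Raly the log2 change was 1.85 in Cy5 alone and -0.18 in Cy3 alone.

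Transcripts with large log2 changes were described as a further set, and Raly alone among them passed the test. In all, 241 genes had a log2 change above 1 and 50 had one below -1. Of the 241, 165 had an unadjusted p under 0.05, 26 had groups that did not overlap and 1, Raly, passed the test. Among all genes these shares on the higher side were 7.61%, 2.12% and 0.00887%. Of the 50, the counts were 45, 12 and 0, against 3.15%, 0.763% and 0% of all genes on the lower side. Both sets were chosen by the size of this same difference, so high counts are in part fixed by the choice. Transcripts without a gene symbol made up 63.5% of the 241 and 80% of the 50, against 39.0% of all genes.

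The size of the 241 differences varied between arrays of the same diet, and slide 1 held later-day arrays only. Averaged over these genes, BLD 2 stood 2.91 and BLD 3 stood 2.32 above the STD mean on the log2 scale, and both arrays lay on slide 1. BLD 4, of the later day on slide 2, stood 0.96 above it, BLD 5 stood 0.58 and BLD 1 stood 0.19. The STD arrays ranged from -0.27 to 0.13. ERD 4, the third array of slide 1, stood 2.64 above the STD mean. It had no part in the log2 change, but it did count in the filter on probes and in the choice of a probe per gene. ERD 2, of the earlier day on slide 4, stood 1.45 above the STD mean, while STD 2 of the same slide stood 0.13 above it. The other ERD arrays stood between 0.38 and 0.43, so all ERD arrays lay above all STD arrays. Without the 3 arrays of slide 1 the median log2 change of the 241 genes was 0.42, against 1.31 with them, and 48 of the 241 stayed above 1. Their choice included BLD 2 and BLD 3, so a lower value without these arrays is in part fixed by the choice. Among all genes 82 had a log2 change above 1 without slide 1, and 25 had one below -1. On the earlier scan day alone the median of the 241 was 0.32. The 50 genes below -1 had a median of -0.93 without slide 1, against -1.27 with it. The parts of the slide and of the scan day in these differences were not tested.

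Cat, which encodes catalase, is given as an example. It was chosen after its values were seen. It was at 0.62, 5.82, 4.58, 1.58 and 2.10 in BLD, against 1.03, 0.97, 0.67, 1.05 and 0.25 in STD. BLD 2 and BLD 3 were far above the other BLD and all STD arrays, BLD 1 lay within the STD values, and the log2 change of 2.15 (adjusted p = 0.445 in limma) was 0.64 without slide 1. On ERD arrays 1 to 5 Cat was at 2.71, 3.65, 2.45, 5.63 and 1.19, all above every STD array, and of these ERD 4 alone lay on slide 1. Snap25, a SNARE protein of synaptic vesicle fusion, was at 2.93, 5.37, 4.10, 2.93 and 2.38 in BLD, against 2.17, 2.48, 2.52, 2.53 and 1.69 in STD. Its log2 change was 1.26, and 0.47 without slide 1. Itgam, a microglial integrin, had a log2 change of 1.17, which was 0.23 without slide 1 and 0.15 on a further probe.

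**Figure D4:**
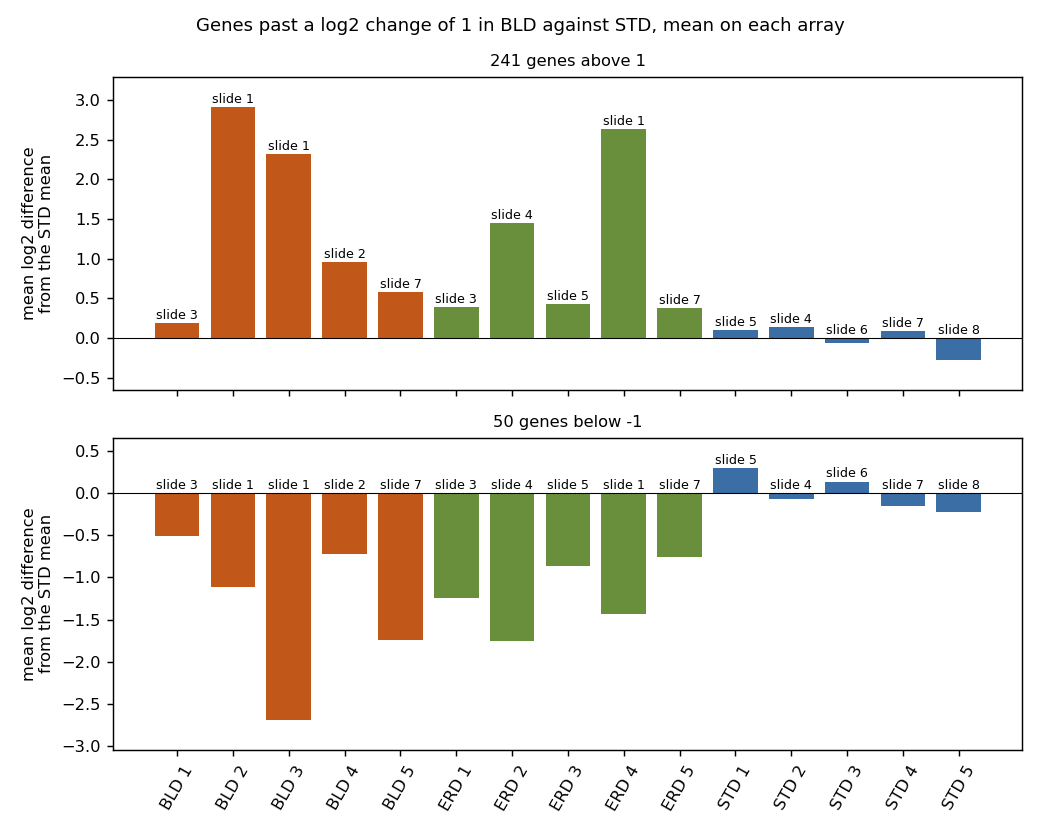
Mean log2 difference from the STD mean on each array (vertical axes) over the 241 genes with a log2 change above 1 (top) and the 50 genes below -1 (bottom) in BLD against STD. Bars are arrays, with BLD, ERD and STD side by side and the slide written at each bar. In the top panel the 3 arrays of slide 1, BLD 2, BLD 3 and ERD 4, stand highest.

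Genes of 36 pathway, cell type and region lists were then described, covering 791 distinct measured genes, of which 96 (12.1%) had an unadjusted p under 0.05, against 10.8% of all genes. Over all genes 60.1% had a log2 change above 0, with a median of 0.05, and each list is read beside that. Centring each array on its median moved the median of all genes to 0.18 and put all 36 list medians above 0. From the processed signals 26 of the 36 medians were below 0, against 12 with the loess ratios. A list median with median centring is read beside that 0.18. Raly was the only list member that passed the test, so differences of other members are given as values. In whole hemibrain RNA, fewer cells of a type and less RNA per cell cannot be told apart.

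**Figure D5:**
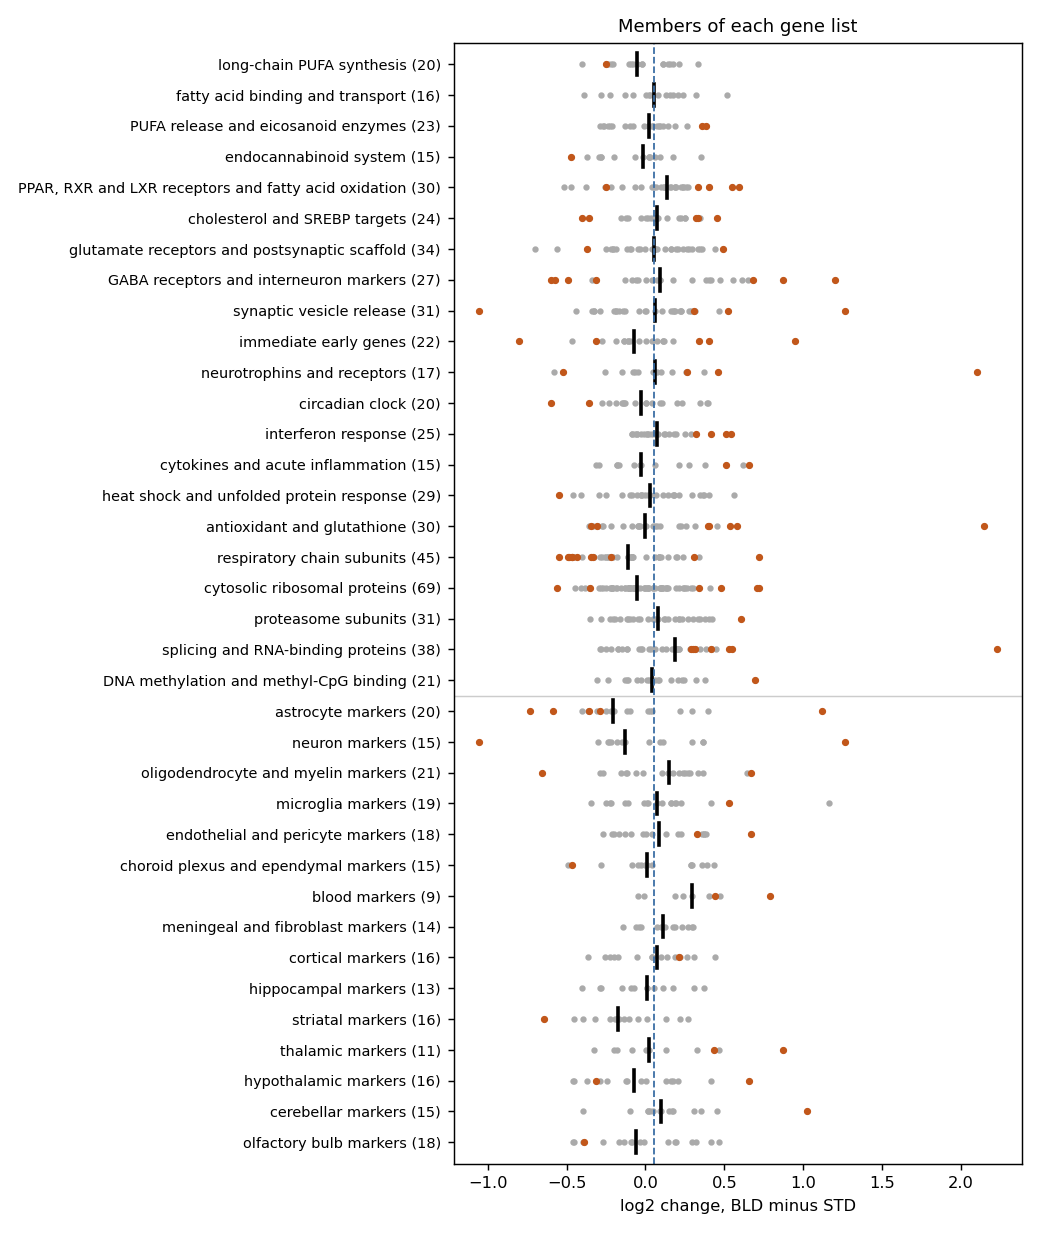
Log2 change of BLD against STD (horizontal axis) for each measured member of 36 gene lists, with the number measured after the name. Points are genes, orange where the unadjusted p was under 0.05, black bars are list medians and the dashed line is the median of all genes at 0.05. The blood and splicing lists have the medians furthest to the right of the line, and the astrocyte and striatal lists those furthest to the left.

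None of the enzymes that build long-chain PUFA passed the test in limma (0 of 20), where 0.00887% of all genes passed. At an unadjusted p under 0.05 stood 1 of the 20, against 10.8% of all genes. Of the 20 measured members 7 were higher and 13 lower in BLD, with a median log2 change of -0.05 (0.14 with median centring). Relative to all genes it was -0.10, and -0.04 with median centring. Fads1, the delta-5 desaturase, was at -0.71, -0.81, -1.38, -0.53 and -0.97 in BLD, against -1.59, -0.77, -1.13, -1.28 and -0.49 in STD. The groups overlapped widely (log2 change 0.17 ± 0.23 SE, adjusted p = 0.816 in limma). Fads2, the delta-6 desaturase, was well above background on 2 of 5 BLD arrays and 5 of 5 STD arrays, with a log2 change of -0.05 ± 0.10 that was 0.01 without slide 1 and 0.11 with median centring.

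Of the elongases that act on PUFA, Elovl5 had a log2 change of 0.16 ± 0.11 (SE, adjusted p = 0.597 in limma). Elovl2, which makes precursors of docosahexaenoic acid, was at 0.86, 1.27, 1.62, 2.17 and 2.73 in BLD, against 1.89, 1.92, 1.79, 1.39 and 1.78 in STD. The STD values lay inside the BLD range, and the BLD values were spread more widely (log2 change -0.02 ± 0.30 SE, of either sign depending on the array left out). Elovl6, an elongase of saturated fatty acids, had one of 0.21 (adjusted p = 0.494).

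Fatty acid binding and transport genes had 11 of 16 members higher and a median of 0.05, the same as all genes, and -0.14 from the processed signals. Mfsd2a, which carries docosahexaenoic acid across the blood-brain barrier, was at 2.04, 1.90, 2.52, 2.05 and 2.73 in BLD, against 1.995, 2.43, 2.56, 2.17 and 2.06 in STD. The groups overlapped throughout, with a log2 change of 0.00 ± 0.21 (SE, adjusted p = 0.996 in limma). Lpl, lipoprotein lipase, had a log2 change of 0.32, which was 0.11 without slide 1 and 0.04 on a further probe. Apoe, the main apolipoprotein of the brain, had one of -0.39 in the ratio but 0.15 in Cy5 alone.

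Enzymes that release PUFA from membranes or turn them into eicosanoids had 13 of 23 members higher and a median of 0.02 (-0.08 from the processed signals). Pla2g6, a calcium-independent phospholipase A2, lay between -0.52 and -0.03 in BLD and between -0.74 and -0.50 in STD, a log2 change of 0.36 (adjusted p = 0.409), with BLD 1 inside the STD range. Alox12b, a lipoxygenase known from skin, was 0.39 higher in BLD (adjusted p = 0.445), and 0.19 higher on a further probe. In the endocannabinoid system 7 of 15 members were higher, with a median of -0.02 (0.22 with median centring). Relative to all genes it was -0.07, and 0.04 with median centring. Mgll, the lipase that degrades 2-arachidonoylglycerol, was at 5.52, 5.01, 5.32, 5.10 and 5.57 in BLD, against 5.85, 5.62, 6.04, 5.30 and 6.09 in STD. BLD values were lower on the whole, with STD 4 inside the BLD range. The log2 change was -0.47 in the ratio (adjusted p = 0.431), with -0.12 in Cy5 and 0.25 in Cy3. Further Mgll probes had -0.52 and -0.29. Cnr2, the peripheral cannabinoid receptor, had -0.28 in the ratio, with 0.63 in Cy5 and 1.26 in Cy3.

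Nuclear receptors of fatty acids and genes of fatty acid oxidation had 21 of 30 members higher in BLD (70.0%, against 60.1% of all genes) and a median of 0.14. The median was 0.13 from the processed signals, 0.01 in Cy5 alone and -0.12 in Cy3 alone. Hadha, which encodes part of the trifunctional protein that oxidises long-chain fatty acids in mitochondria, was at -0.61, -0.49, -0.60, -0.55 and -0.47 in BLD, against -0.85, -0.94, -1.05, -0.84 and -1.07 in STD. Both groups were tight and did not overlap. The log2 change was 0.40 ± 0.09 (SE, adjusted p = 0.184 in limma), with 0.17 in Cy5 alone and -0.18 in Cy3 alone. Nr1h3, the liver X receptor alpha, also had groups that did not overlap (log2 change 0.33, adjusted p = 0.408), and a further probe had 0.21. Cholesterol synthesis genes and targets of SREBP had 18 of 24 members higher and a median of 0.07, with 0.02 in Cy5 alone and -0.11 in Cy3 alone. Mvd and Fdps, enzymes of the mevalonate pathway, had log2 changes of 0.45 and 0.32 (adjusted p 0.371 and 0.423), and the Mvd groups did not overlap. In Cy5 alone Mvd had 0.18 and Fdps 0.39, and in Cy3 alone they had -0.18 and 0.10. The 6 lower members included Abcg1 (-0.40) and Mvk (-0.36), the latter also of the mevalonate pathway.

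Synaptic lists lay at the level of all genes. Glutamate receptors and their scaffold had 20 of 34 members higher and a median of 0.06, GABA receptors and interneuron markers 17 of 27 and 0.09, and synaptic vesicle genes 17 of 31 and 0.06. From the processed signals these medians were -0.37, -0.53 and -0.31, and with median centring 0.12, 0.19 and 0.16, so their direction depended on the processing. Gabrd, a subunit of extrasynaptic GABA receptors, was at 4.32, 4.69, 4.76, 4.79 and 4.56 in BLD, against 4.97, 5.05, 5.004, 4.87 and 5.69 in STD. All BLD arrays lay below all STD arrays, and STD 5 was highest (log2 change -0.49 ± 0.19 SE, adjusted p = 0.424 in limma). In Cy5 alone it was -0.25 and in Cy3 alone 0.12.

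Syt1, the calcium sensor of vesicle fusion, was at 8.62, 7.51, 6.42, 7.67 and 7.28 in BLD, against 8.87, 8.38, 8.69, 8.48 and 8.33 in STD. BLD 1 lay among the STD arrays, BLD 3 was lowest, and the log2 change of -1.05 (adjusted p = 0.408) was -0.70 without slide 1. Syn3, a synapsin, had a log2 change of 0.53. Camk2b, a calcium-dependent kinase of the postsynapse, had one of -0.37, and -0.21 on a further probe. Grik1, a kainate receptor subunit, had one of 0.49 that was -0.04 from the processed signals.

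Immediate early genes, which respond to neuronal activity, had 10 of 22 members higher and a median of -0.07 (0.17 with median centring), which relative to all genes is -0.12 (-0.01 with median centring). Jund lay between 0.80 and 1.65 on the 4 BLD arrays with a value and between 0.08 and 0.58 on the 5 STD arrays (log2 change 0.95, adjusted p = 0.371), while Jun lay between -3.16 and -1.06 in BLD and between -1.28 and -0.59 in STD (-0.80, and -0.41 without slide 1). The Jund groups did not overlap and the Jun groups did, with BLD 3 far below the rest. Neurotrophins and their receptors had 10 of 17 members higher and a median of 0.06 (-0.02 from the processed signals). Their mean, which includes Cntfr, ran from 0.02 to 0.12 in BLD, above all STD arrays (-0.17 to 0.01). Bdnf, brain-derived neurotrophic factor, was at 0.11, -0.21, -0.30, -0.43 and -0.19 in BLD, against -0.41, -0.35, -0.41, -0.16 and -0.06 in STD. The groups overlapped (log2 change 0.07 ± 0.12 SE, adjusted p = 0.842 in limma), and the sign was reversed in Cy5 alone (-0.07). Clock genes had 10 of 20 members higher and a median of -0.03 (0.15 with median centring, which is -0.03 relative to all genes). Tef and Cry2, a clock output factor and a clock repressor, had log2 changes of -0.60 and -0.36 (adjusted p 0.256 and 0.440).

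Of the interferon response 18 of 25 members were higher in BLD, with a median of 0.08 (0.20 from the processed signals, -0.01 without slide 1). Lgals3bp, a secreted galectin-binding glycoprotein, was at -0.99, -1.20, -0.90, -1.12 and -1.08 in BLD, against -1.57, -1.49, -1.76, -1.44 and -1.57 in STD. The groups were tight and separate (log2 change 0.51 ± 0.11 SE, adjusted p = 0.161 in limma), and a further probe had a log2 change of 0.57. In Cy5 alone it was 0.25 and in Cy3 alone -0.17. Psmb8, a subunit of the immunoproteasome, had one of 0.42 (adjusted p = 0.423).

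Cytokine and inflammation genes had 7 of 15 members higher and a median of -0.03 (0.10 from the processed signals, 0.18 with median centring). Complement C3 lay between -3.87 and -2.32 in BLD and between -4.14 and -3.51 in STD. The log2 change of 0.66 (adjusted p = 0.445) was 0.35 without slide 1, and a further probe had one of 0.44. Ccl5, a chemokine, had one of 0.51, which was 0.34 without slide 1. Heat shock and unfolded protein genes had 16 of 29 members higher and a median of 0.03 (-0.01 without slide 1). Hspb1, a small heat shock protein, had a log2 change of -0.55, and Xbp1, a transcription factor of the unfolded protein response, one of -0.46 (adjusted p 0.403 and 0.466). Antioxidant and glutathione genes had 15 of 30 members higher and a median of 0.00. Gstp1 and Gstm5, glutathione transferases, had log2 changes of 0.53 and 0.58 (adjusted p 0.325 and 0.365), and the Gstp1 groups did not overlap. A further Gstp1 probe had 0.19.

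Subunits of the respiratory chain were mostly lower in BLD with the loess ratios. Of 45 measured members 32 were lower and 13 (28.9%) higher, where 39.9% of all genes were lower and 60.1% higher, with a median of -0.11, and -0.16 relative to all genes. The mean over the list ran from -0.14 to -0.00 in BLD, below all STD arrays (0.02 to 0.12). At an unadjusted p under 0.05 stood 9 lower and 2 higher members, against 3.15% and 7.61% of all genes. The median was -0.19 from the processed signals and -0.17 in Cy5 alone, but 0.20 with median centring, which is 0.02 above all genes, so the direction depended on the scaling.

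Cox6a1, a subunit of cytochrome c oxidase, was at 1.74, 1.53, 1.42, 1.44 and 1.03 in BLD, against 1.95, 1.77, 1.96, 1.87 and 2.03 in STD. All BLD arrays were below all STD arrays (log2 change -0.49 ± 0.14 SE, adjusted p = 0.369 in limma). Uqcrc1, a core subunit of complex III, went the other way. It was at 1.5, 1.46, 1.41, 1.73 and 1.69 in BLD, against 0.50, 0.98, 1.17, 0.79 and 0.75 in STD, also without overlap (log2 change 0.72 ± 0.17 SE, adjusted p = 0.184).

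Splicing and RNA-binding proteins had 26 of 38 members higher in BLD (68.4%, against 60.1% of all genes) and a median of 0.19, or 0.14 relative to all genes. The members at an unadjusted p under 0.05 numbered 7, all higher, among them Raly, where 10.8% of all genes stood at that p, 7.61% higher and 3.15% lower. The median was 0.04 from the processed signals and 0.08 in Cy5 alone. On arrays the list mean ran from -0.16 on BLD 3 to 0.20 in BLD and from -0.23 to 0.03 in STD. Cytosolic ribosomal proteins had 30 of 69 members higher and a median of -0.05, which was -0.23 with slide as a fixed block and 0.28 with median centring, or -0.11 relative to all genes and 0.10 with median centring. Rpl3 lay between -0.66 and -0.36 in BLD and between -2.07 and -0.77 in STD (log2 change 0.71, adjusted p = 0.330). Rps15 had a log2 change of 0.48, and 0.41 on a further probe. Proteasome subunits had 19 of 31 members higher and a median of 0.08 (-0.07 with slide as a fixed block). Psmb7 and Psma7, subunits of its core, had log2 changes of 0.61 and -0.28. Genes of DNA methylation and methyl-CpG binding had 14 of 21 members higher and a median of 0.04 (-0.03 in Cy5 alone). Mtr, methionine synthase, was 0.70 higher in BLD (adjusted p = 0.423) while its further probe had 0.02, and Mat2a, which makes the methyl donor S-adenosylmethionine, had 0.38 on one probe and -0.32 on the other.

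Among cell type markers, those of astrocytes had 13 of 20 members lower in BLD and a median of -0.21, or -0.26 relative to all genes. It was -0.34 from the processed signals but 0.01 in Cy5 alone and 0.03 with median centring, the last being -0.15 relative to all genes. Aldoc, an astrocyte aldolase, was at 3.79, 3.84, 3.16, 3.84 and 3.47 in BLD, against 4.16, 4.17, 4.56, 4.30 and 4.57 in STD, without overlap (log2 change -0.73 ± 0.17 SE, adjusted p = 0.184 in limma). Gfap, the astrocyte intermediate filament, went the other way, with 3.15, 3.48, 3.53, 3.93 and 4.44 in BLD, against 2.37, 3.11, 2.42, 2.16 and 2.89 in STD. Its groups were also separate (log2 change 1.12 ± 0.27 SE, adjusted p = 0.220), but the value was -0.07 from the processed signals. A further Gfap probe had 0.46.

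Neuron markers had 7 of 15 members higher and a median of -0.13, which was 0.10 in Cy5 alone and 0.17 with median centring, or -0.18 relative to all genes and -0.01 with median centring. Oligodendrocyte and myelin markers had 13 of 21 higher and a median of 0.15, but -0.26 from the processed signals. Cspg4, the proteoglycan NG2 of oligodendrocyte precursors and pericytes, lay between 0.25 and 0.99 in BLD and between -0.18 and 0.28 in STD (log2 change 0.67, adjusted p = 0.220). Microglia markers had 12 of 19 higher and a median of 0.08 (-0.05 in Cy5 alone), with P2ry12, a purine receptor of resting microglia, at a log2 change of 0.53. Endothelial and pericyte markers had 11 of 18 higher and a median of 0.08 (0.24 without slide 1, and -0.26 from the processed signals), with Pdgfrb at 0.33. Meningeal and fibroblast markers had 10 of 14 higher and a median of 0.11 (-0.01 in Cy5 alone), with Igfbp2 and Slc6a13 at 0.27 and 0.30. A further Igfbp2 probe had 0.08.

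Blood markers had 7 of 9 measured members higher and a median of 0.29, but -0.24 from the processed signals. Alas2, the enzyme of heme synthesis in red cells, was at 2.38, 1.17, 2.84, 1.36 and 1.57 in BLD, against 1.07, 1.13, 1.44, 0.72 and 1.02 in STD. BLD 1 and BLD 3 were highest and the groups overlapped. S100a9, a granulocyte protein, had a log2 change of 0.44, with 3 of 5 arrays of either diet well above background. Choroid plexus markers had 8 of 15 higher and a median of 0.01 (-0.19 from the processed signals), with Slc4a5 at 0.39. Ttr, the transthyretin of the choroid plexus, had -0.46 in the ratio, with 0.41 in Cy5 and 0.78 in Cy3.

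Markers of brain regions were described in the same way. Cerebellar markers had 13 of 15 members higher and a median of 0.10. Their list mean, which includes Zic2, ran from 0.00 to 0.26 in BLD, above all STD arrays (-0.14 to -0.02). The median was -0.28 from the processed signals. Besides Zic2, Neurod1 had a log2 change of 0.31. The list means of the 2 diets did not overlap in 3 of the 36 lists, these being the cerebellar, neurotrophin and respiratory chain lists. The cerebellar and neurotrophin means include Zic2 and Cntfr, genes taken for their low p in this same comparison, and means without them were not taken. Striatal markers had 12 of 16 members lower and a median of -0.18 (-0.35 from the processed signals, 0.04 with median centring, or -0.14 relative to all genes), with Penk, the enkephalin precursor, at -0.64 in the ratio, 0.05 in Cy5 and 0.57 in Cy3, and Pde1b at -0.46.

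Cortical markers had 10 of 16 members higher and a median of 0.07 (-0.34 from the processed signals), with Rasgrf2 at 0.22 and Cux2 at 0.31. A further Rasgrf2 probe had 0.03. Hippocampal markers had 7 of 13 higher and a median of 0.01 (-0.31 from the processed signals), with Pou3f1 at -0.40. Thalamic markers had 7 of 11 higher and a median of 0.02 (-0.41 from the processed signals), with Cadps2 at 0.87 and Rgs16 at 0.43. A further Cadps2 probe had 0.56. Hypothalamic markers had 9 of 16 lower and a median of -0.07 (0.01 in Cy5 alone, 0.09 with median centring), with Cartpt at 0.66 and Sst at -0.32. Olfactory bulb markers had 11 of 18 lower and a median of -0.06 (0.08 with median centring, or -0.10 relative to all genes), with Th at -0.39 and Dlx2 at -0.45. The part of these cell types and regions in the differences of other genes was not tested.

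The values on BLD were last set against those on ERD. In limma 0 of 22557 genes (0%) passed between BLD and ERD, with a smallest adjusted p of 0.250 and 2342 genes (10.4%) at an unadjusted p under 0.05. This does not show that both diets gave the same levels. Raly differed by 0.20 between BLD and ERD (BLD minus ERD, adjusted p = 0.781). The comparisons of BLD and of ERD against STD share the STD arrays, so their values are only given side by side. Raly had a log2 change against STD of 2.23 in BLD and 2.02 in ERD, and A_55_P2037525 one of 0.92 in BLD and 1.07 in ERD. Cntfr was at 2.10 in BLD and 1.86 in ERD, Lsm14b at 1.20 in BLD and 0.95 in ERD, and Rnf10 at 0.71 in BLD and 0.76 in ERD. In ERD against STD 49 genes (0.217%) passed. Zic2 was at 1.02 in BLD and 0.15 in ERD, and its difference of 0.87 between these diets did not pass (adjusted p = 0.250). Of the 36 list medians of BLD minus ERD 30 were above 0, beside a median of 0.04 over all genes. Of single genes 58.0% were above 0, but a share of genes and a share of list medians are unlike measures. These list medians were taken with the loess ratios only. They ran from -0.13 for the interferon response to 0.35 for GABA receptors and interneuron markers, without a test.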

How the data were processed

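Left hemibrain RNA of 15 mice was hybridised in Cy5 against a reference RNA in Cy3, 1 animal per array and 5 per diet, without dye swaps. Groups follow the diet labels, because titles in all 3 groups contain the word control. The authors deposited scanner output with intensities for each spot. Per the file headers these are median values of spot and local background, and processed intensities after background subtraction and dye normalization. The deposited series table holds log10 ratios of Cy5 over Cy3, which were turned into log2 ratios as an alternative. Spots were quantified with Agilent Feature Extraction, version 11.5.1.1 per the file headers and 10.7 per the submitters' processing notes. Slide and scan day were read from the file headers.

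Median intensities were background-corrected with normexp (offset 50) and normalized by loess within arrays in limma 3.58.1 under R 4.3.3. Spots the scanner software had marked as outliers (0.574%) were left out. A probe was kept if 5 or more of the 15 arrays showed it well above background in Cy5 and 8 or more gave a value (26348 of 55681). RefSeq gave a symbol to 27656 probes, and each symbol was represented by its probe of highest mean Cy5, which left 22557 genes, 13763 with a symbol. No coordinates are given, since the files use an older genome build than the gene table. A single limma model over all 15 arrays (12 residual degrees of freedom) compared the diets in pairs, with 2-sided p adjusted by Benjamini-Hochberg over all genes, and was tested on simulated data. Precision is limited by the number of arrays, and the standard error of a log2 change had a median of 0.163. Blocks for slide and scan day, other scalings, filters and probe choices, each array left out in turn, and 2 sets of arrays left out together made up the alternatives.

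The groups, the 36 lists and the rules were chosen with earlier results of these data known. Named genes are the 12 of lowest p with a symbol on each side (those past the threshold first), up to 3 members of each list that passed or else the 2 of lowest p, and in any case Bdnf, Mfsd2a, Fads1, Fads2, Elovl2 and Elovl5. The values of a few genes taken by the rule are not reported here. The microRNA and DNA methylation assays of the study were not used here. A list of pituitary markers was left out because 3 of its 9 genes were measured.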

Additional observations from a re-analysis of the deposited data

Results flagged for a closer look

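Of 259 sets of 5 values tested with Dixon's criterion for a lone extreme value (0.71 for 5 samples), 17 were marked. Chance marks about 1 in 20 such sets. In BLD, Mapk10 was low on BLD 3 (5.39), Jun low on BLD 3 (-3.16), Igfbp2 low on BLD 3 (0.16), Atp9a low on BLD 1 (4.07), Rps15 low on BLD 1 (-0.0203) and Pde1b high on BLD 1 (4.27). In STD, Raly was high on STD 1 (-0.46), Pde5a low on STD 1 (-0.77), Elovl2 low on STD 4 (1.39), Gabrd high on STD 5 (5.69), Mat2a low on STD 5 (-0.50), Slc6a13 high on STD 5 (2.90) and Dlx2 high on STD 5 (0.81). List means stood apart for heat shock genes on BLD 5 (-0.16), splicing proteins on BLD 3 (-0.16), cerebellar markers on BLD 4 (0.26) and fatty acid oxidation genes on STD 5 (-0.0794). Without STD 1 the log2 change of Raly was 2.48, against 2.23 with it.

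Cy3 alone holds the same reference RNA on every array. In it 5 of 22557 genes were called between BLD and STD arrays, all higher on BLD arrays (adjusted p = 0.0337 for each in limma). At an unadjusted p under 0.05 stood 3577 genes in Cy3 alone. Both counts were larger than in the ratio, where 2 genes were called and 2427 (10.8%) stood at that p. Of the 5 genes called in Cy3, Slc26a1 alone has a symbol, and it was 0.69 higher in Cy3 and 0.55 higher in the ratio. It was named after its values were seen.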

How the results depend on the processing

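Raly had a log2 change between 2.13 and 2.48 whichever array was left out. The count of 2 genes called in BLD against STD ranged from 1 to 8 with arrays left out in turn. It was 8 without BLD 1 or without STD 1, 7 without ERD 1, 5 without BLD 3, and 1 without any of BLD 2, BLD 4, BLD 5, ERD 2, ERD 4, STD 3 or STD 5. It was 0 with slide as a fixed block (1200 genes at an unadjusted p under 0.05) and 1 with a background offset of 1, with processed signals, with the deposited log ratios, with median centring, with BLD and STD arrays only, with scan day as a fixed block (Raly, adjusted p = 0.0164) and on the earlier scan day only (Zic2, adjusted p = 0.00747, with Raly at 0.309). It was 5 without a filter on dim probes, 5 in Cy3 alone, 6 with slide as a random block (5 higher, 1 lower), 9 with a trended robust prior (6 higher, 3 lower), 35 with array weights (29 higher, 6 lower) and 11 at an adjusted p under 0.1 (7 higher, 4 lower). Without BLD 3 and ERD 1, a choice made after seeing the data, it was 7. In BLD against ERD the count of 0 ranged from 0 to 1 with arrays left out (1 without STD 3), and was 1 with slide as a fixed block, on the earlier scan day only and without slide 1. The causes were not tested.

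Over all alternatives, 3129 values of single genes kept their direction and side of the threshold, 42 passed it instead, 19 lost their call and 58 turned sign. The 3129 are in part fixed in advance. Leaving out an ERD array, using BLD and STD arrays only or a trended robust prior cannot move the log2 change. Raly and A_55_P2037525 alone had a call to lose. With the processed signals and the deposited log ratios the genes that turned sign were Mfsd2a (-0.20), Bdnf (-0.0228), Grik1 (-0.0404), Gfap (-0.074), Alas2 (-0.54), Cux2 (-0.023), Cartpt (-0.19) and Neurod1 (-0.28). In Cy5 alone they were Mfsd2a (-0.16), Bdnf (-0.0659), Apoe (0.15), Cnr2 (0.63), Ttr (0.41), Penk (0.047) and Sst (0.46). With median centring they were Fads2 (0.11), Elovl2 (0.11) and Psma7 (0.0446), and with an offset of 1 Mfsd2a (-0.18) and Bdnf (-0.0316). With slide as a fixed block they were Fads2 (0.0033), Elovl2 (0.56), Lpl (-0.11), Ccl5 (-0.0342), Snap25 (-0.12) and Pou3f1 (0.58). A block for scan day turned Elovl2 (0.0453) and Pou3f1 (0.021), the earlier day alone Elovl2 (0.0406) and Pou3f1 (0.0726), and slide as a random block Elovl2 (0.0885). With array weights they were Elovl2 (0.0504) and Mfsd2a (-0.066), without BLD 3 and ERD 1 Elovl2 (0.0045) and Mfsd2a (-0.0635), and without slide 1 Fads2 (0.0131) and Elovl2 (0.17). With the probe of largest interquartile range they were Mapk10 (0.42) and Mat2a (-0.32). With arrays left out in turn Elovl2 ranged from -0.27 to 0.19, Mfsd2a from -0.12 to 0.0907 and Bdnf from -0.0033 to 0.13.

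No paired analysis was possible because the replicate numbers are in accession order and each array holds a different animal. With 5 arrays a diet and a later scan day that holds 3 BLD and 0 STD arrays, diet and scan day overlap in part, and slide 7 alone gives a difference within a slide.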
